A study of Mus musculus with 30 samples.

Results

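The genes described here are 9 of the 50686 genes counted in this series, named as those with the largest changes toward mature osteoclasts: Calcr, Corin, Clic5, Kazn, Akr1c18, Rufy4, Kbtbd11, Cpne8 and Cdsn. They were selected on the size of expression differences measured in these libraries, and which of the 10 groups' differences named which gene is not recorded. Their differences between groups are therefore given as descriptions throughout, with no test. All 9 passed the filter on low counts that left 15310 genes for testing. Osteoclasts, the cells that resorb bone, were grown from macrophages derived from the bone marrow of C57BL/6J mice, with 25 ng/ml M-CSF and 100 ng/ml RANKL in α-MEM with 10% fetal bovine serum, in culture dishes. The 30 libraries fall into 10 groups of 3. Wild-type (WT) cells of 6-month and 20-month mice were taken after 2 days of the cytokines, before the multinucleated stage. WT cells of 1-, 6- and 20-month mice and cells of 1- and 6-month mice that lack Terc, which encodes the RNA template used by telomerase (Terc-/-, called KO below), were taken when large multinucleated cells had appeared. Another 3 groups carry a tag in their titles that the labels do not explain and were kept apart. They are the 1-month and 6-month KO cultures of set 519 and the 1-month WT cultures of set D1, all multinucleated by their labels. All groups received the same cytokines, and no group is without RANKL. The labels do not say which generation of Terc-/- breeding the mice came from, nor whether libraries of a group are separate animals or cultures. The p-values given below for other genes thus rest on the spread among the sequenced samples alone, and part or all of it may be technical.

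Osteoclasts form when RANKL drives macrophage-lineage precursors to fuse, seal onto bone and secrete acid and proteases through a ruffled membrane. Calcr encodes the calcitonin receptor, a classical marker of the mature osteoclast, through which calcitonin shuts down resorption. Clic5 encodes a chloride intracellular channel protein that links membranes to actin through ezrin-family proteins, and Rufy4 a RUN and FYVE domain protein that tethers late endosomes and lysosomes. Corin is a membrane serine protease best known in heart for activating atrial natriuretic peptide. Akr1c18 is the 20-alpha-hydroxysteroid dehydrogenase that inactivates progesterone. Kazn (kazrin) and Cdsn (corneodesmosin) are known from the desmosomes of skin. Kbtbd11 is a BTB-Kelch protein of the kind that brings substrates to cullin 3 ubiquitin ligases, and Cpne8 is a copine, a calcium-dependent phospholipid-binding protein.

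The label multinucleated did not mark 1 state of the cultures. The summed level of 9 osteoclast markers (Acp5, Ctsk, Mmp9, Dcstamp, Ocstamp, Atp6v0d2, Oscar, Itgb3, Nfatc1), in CPM (counts relative to library size, on the usual per-million scale, with TMM scaling), ranged from 673 to 736 in unprefixed 1-month KO. It was 2363 to 2491 in unprefixed 1-month WT and 2471 to 2767 in unprefixed 6-month KO. All 9 of those libraries lay below the 2-day WT cultures, at 3655 to 4820. The other multinucleated groups lay above them, at 7019 to 8233 (set 519 KO, 1 month), 20693 to 22342 (WT, 6 months), 23123 to 24764 (WT, 20 months), 26435 to 27647 (set 519 KO, 6 months) and 44018 to 46436 (set D1 WT). Sums of 14 macrophage and monocyte markers ran from 10107 to 12081 in 2-day, 6-month and 20-month WT libraries to 48748.5 to 51689.6 in unprefixed 1-month KO. Set D1 had Xist at 848 to 937 CPM and 0 counts of Ddx3y, the pattern of female cells, which the other 9 groups did not have. Terc had 5 counts over the 18 WT libraries and 0 over the 12 KO libraries, which allows up to 0.017 CPM, so the genotype could not be checked from it. Library totals ranged from 4269798 to 25147975 counts, with set 519 lowest at 4269798 to 12987993. In bulk RNA, fewer mature cells and less RNA per cell cannot be told apart in any result below.

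The stretches before the transcription starts of 6 members are shown: those of the 4 with the largest log2 fold changes from 2-day to multinucleated WT cells at both ages (Calcr, Corin, Clic5 and Akr1c18), of Rufy4, chosen after its AP-1 match was seen, and of Cpne8, whose levels followed a different pattern. RefSeq starts (GRCm38.p6) were matched for 8 of the 9 members, with 11 starts in all; Kbtbd11 had no entry. Each window covers 250 bases before a start. Bases that lie in an annotated exon were cut off the stretches shown, while the make-up and motif counts below are over the full windows. Capitals mark GGAAA or its reverse complement TTTCC, the core that NFAT factors bind, and TGANTCA, the site of AP-1, both searched on both strands.
Calcr, upstream start, minus strand, chr6:3764715-3764963: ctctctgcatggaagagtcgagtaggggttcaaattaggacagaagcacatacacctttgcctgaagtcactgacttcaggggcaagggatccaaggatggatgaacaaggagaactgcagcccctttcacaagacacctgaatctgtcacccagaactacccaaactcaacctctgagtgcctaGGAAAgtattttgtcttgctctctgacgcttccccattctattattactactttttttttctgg
Calcr, downstream start, minus strand, chr6:3763631-3763873: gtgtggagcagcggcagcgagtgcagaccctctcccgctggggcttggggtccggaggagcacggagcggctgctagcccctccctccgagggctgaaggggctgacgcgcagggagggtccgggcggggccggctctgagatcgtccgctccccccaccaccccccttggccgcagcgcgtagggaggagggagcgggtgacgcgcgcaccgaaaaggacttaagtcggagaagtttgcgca
Corin, minus strand, chr5:72504541-72504790: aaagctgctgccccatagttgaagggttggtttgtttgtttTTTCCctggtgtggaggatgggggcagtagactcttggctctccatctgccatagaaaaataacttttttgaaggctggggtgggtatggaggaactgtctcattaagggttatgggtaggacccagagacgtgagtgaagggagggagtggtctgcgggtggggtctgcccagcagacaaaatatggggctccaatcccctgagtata
Clic5, plus strand, chr17:44188322-44188571: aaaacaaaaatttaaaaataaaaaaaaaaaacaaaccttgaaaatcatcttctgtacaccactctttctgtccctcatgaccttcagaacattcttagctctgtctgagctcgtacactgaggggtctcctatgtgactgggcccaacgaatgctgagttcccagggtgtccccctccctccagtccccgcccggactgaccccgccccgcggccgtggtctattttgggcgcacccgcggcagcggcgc
Akr1c18, minus strand, chr13:4150655-4150896: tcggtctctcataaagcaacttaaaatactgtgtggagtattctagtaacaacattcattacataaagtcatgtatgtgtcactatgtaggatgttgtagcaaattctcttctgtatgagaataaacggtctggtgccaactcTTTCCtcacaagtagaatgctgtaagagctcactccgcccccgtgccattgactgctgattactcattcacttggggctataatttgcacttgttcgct
Rufy4, plus strand, chr1:74125291-74125540: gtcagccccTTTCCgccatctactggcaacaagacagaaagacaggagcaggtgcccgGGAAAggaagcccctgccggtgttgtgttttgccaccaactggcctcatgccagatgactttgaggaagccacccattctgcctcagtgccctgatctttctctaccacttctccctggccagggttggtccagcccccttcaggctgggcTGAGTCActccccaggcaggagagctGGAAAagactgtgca
Cpne8, minus strand, chr15:90679433-90679638: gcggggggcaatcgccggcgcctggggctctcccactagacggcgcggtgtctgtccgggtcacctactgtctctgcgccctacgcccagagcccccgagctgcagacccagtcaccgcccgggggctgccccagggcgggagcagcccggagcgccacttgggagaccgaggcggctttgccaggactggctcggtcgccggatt
The Calcr windows differ in make-up. The downstream one has 70.8% G and C and 24 CpG dinucleotides, the upstream one 46% and 2. Over 32851 RefSeq windows of the same length the medians are 52.4% and 6. Cpne8 starts in the richest window of the members, at 74.4% G and C with 28 CpG. The NFAT core was found once before Corin and Akr1c18 and in 1 of the Calcr windows, 3 times before Rufy4 and 3 times in 1 of the Kazn windows, and it occurs in 55.57% of all windows. The AP-1 letters occur in 6.749% of windows and, among the members, before Rufy4 only, 41 to 35 bases from its start. Rufy4 and 1 Kazn window also carry GAGGAAG or its reverse complement, a core for PU.1, which 10.61% of windows hold on either strand. None of the 11 windows held CACGTG, the E-box of the MITF and TFE family, which 6.021% of all windows hold. Before Clic5 and Cpne8 and in both Cdsn windows none of the letters searched was found, which says only that they are not in these windows.

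The members differed in their patterns over the 10 groups, visible in the plot of levels by library. Calcr, Corin and Clic5 were low in 2-day cells and in the unprefixed 1-month and KO cultures and high in the groups richest in osteoclast markers. Akr1c18 and Kazn had the same high groups, but Akr1c18 held at least 3.22 CPM in every library and Kazn 3.03 to 6.23 CPM in 2-day cells. In the unprefixed 1-month and KO cultures Kazn was about as low as Clic5, at 0.311 to 1.06 against 0.343 to 0.932 CPM. Rufy4 and Kbtbd11 were already well expressed at 2 days. Cpne8 was lower at 1 month of age than later and highest in 6-month KO. Cdsn stood out in 20-month WT multinucleated cells.

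**Figure D1:**
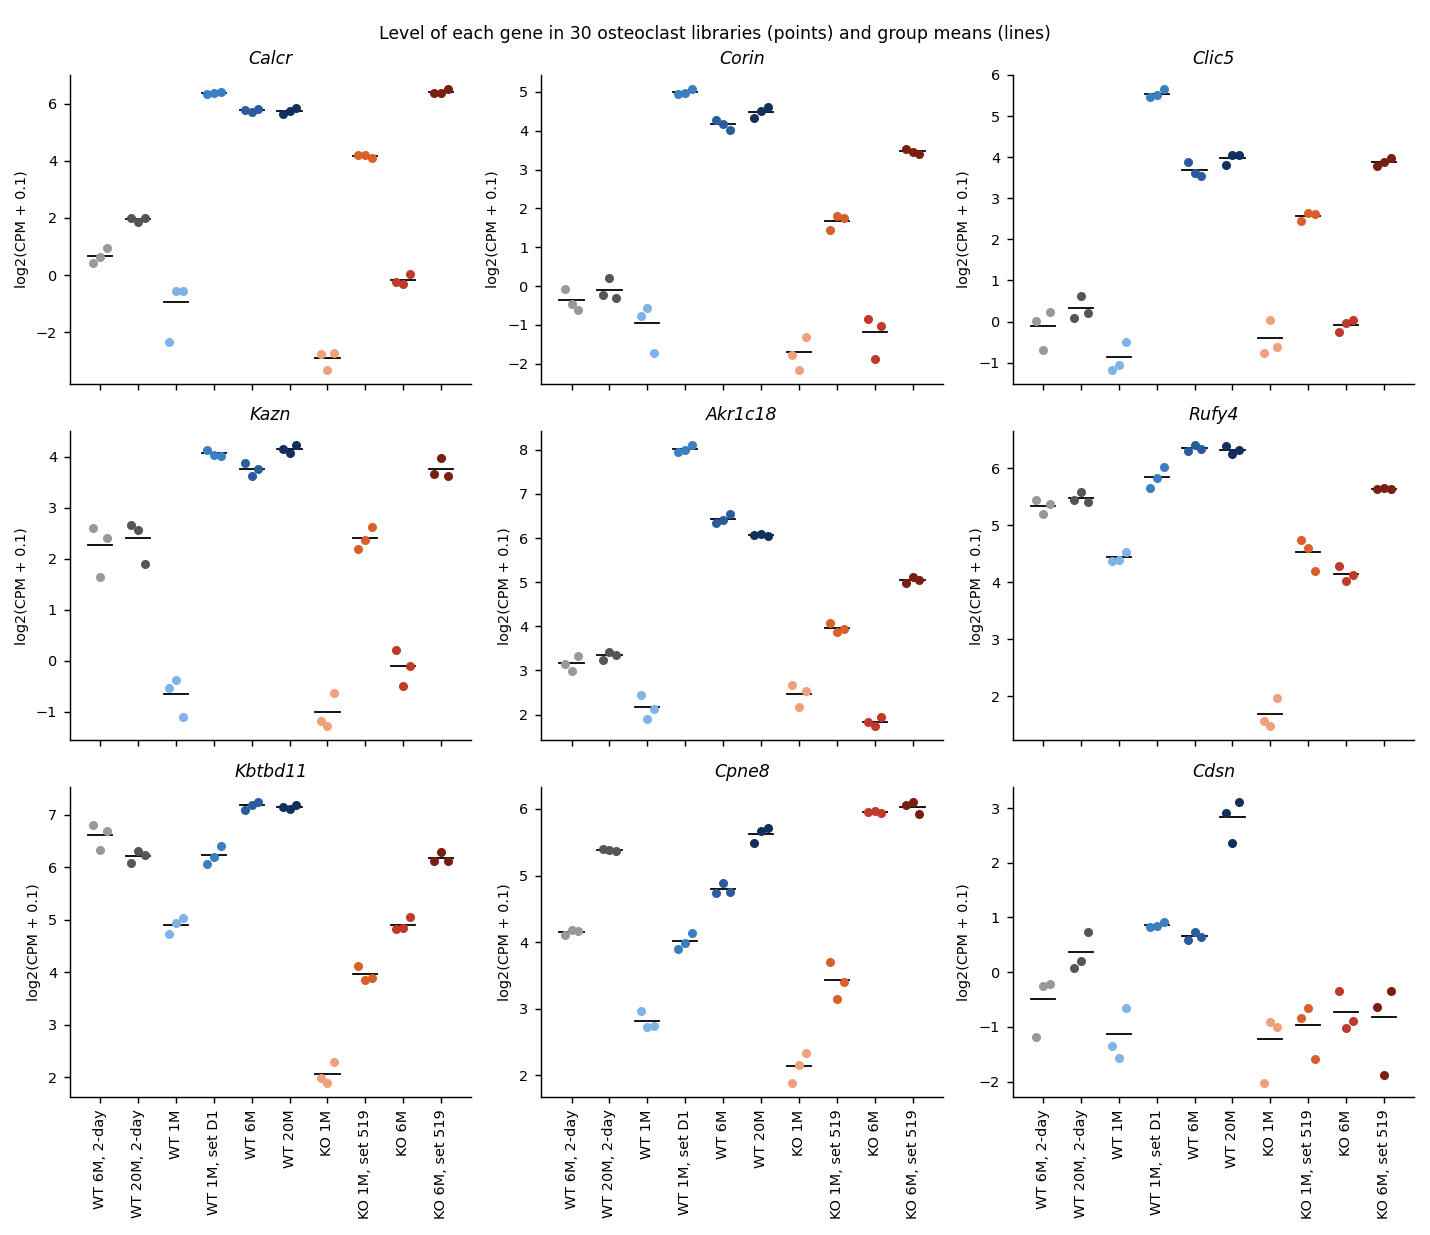
Level of each gene as log2(CPM + 0.1) (vertical axis) in the 3 libraries of each of 10 groups (points; horizontal axis), with the mean CPM of each group on the same scale (line). Calcr spans 0 to 92.1 CPM and Cdsn passes 1.80 CPM in the 20-month WT multinucleated group alone.

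Calcr (ENSMUSG00000023964, chromosome 6, 3685680-3764714, minus strand; 17 merged exons) gave the widest range of the set. Its 3 libraries held 1.24, 1.43 and 1.83 CPM in 2-day cells of 6-month WT and 54.5, 52.2 and 56.1 CPM in the multinucleated cells of the same age. At 20 months they held 3.90, 3.56 and 3.85 CPM at 2 days and 49.2, 53.7 and 58.2 CPM when multinucleated. The stages did not overlap, and the log2 fold changes were 5.16 ± 0.13 (standard error) at 6 months and 3.83 ± 0.11 at 20 months, ranks 8 and 29 of 15310 genes. In ratios of group means this is 36.2-fold and 14.2-fold. The smaller ratio at 20 months goes with a higher 2-day level (3.77 ± 0.186 against 1.5 ± 0.299 CPM, mean ± SD, n = 3), since the multinucleated levels of both ages overlapped. In the cultures with few osteoclast markers the receptor was near its detection limit. Unprefixed 1-month KO held 0.0487, 0 and 0.04996 CPM, that is 2 counts in all, and the library with 0 counts allows up to 0.186 CPM. Unprefixed 1-month WT held 0.0980, 0.573 and 0.573 CPM and unprefixed 6-month KO 0.737, 0.697 and 0.920 CPM. The 1-month WT level was 12.1 times the 1-month KO level, with a 95% counting interval of 3.04 to 104 that covers counting error only. Set 519 KO held 18.2, 18.4 and 16.8 CPM at 1 month and 82.9, 82.3 and 92.1 CPM at 6 months, and set D1 WT 80.9, 82.5 and 84.9 CPM. Set 519 at 6 months and set D1 overlapped at the top of the order, as did 6-month and 20-month WT multinucleated cells below them. The gap from the set 519 to the unprefixed KO of 1 month was 511-fold (interval 141 to 4236), between cultures with the same genotype, age and stage in their labels.

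Corin (ENSMUSG00000005220, chromosome 5, 72300025-72504473, minus strand) had a like course at a lower level. At 2 days its libraries held 0.847, 0.630 and 0.558 CPM (6 months) and 0.753, 1.06 and 0.709 CPM (20 months). When multinucleated they held 19.4, 18.1 and 16.1 CPM and 20.0, 22.7 and 24.2 CPM. The 2-day level was 3.80% of the multinucleated level at 6 months and 3.77% at 20 months, with log2 fold changes of 4.71 ± 0.18 and 4.72 ± 0.17, so Corin did not share the smaller ratio that Calcr had at 20 months. Set D1 WT was highest, at 30.6, 31.3 and 33.9 CPM. Set 519 KO held 2.62, 3.37 and 3.27 CPM at 1 month and 11.5, 10.9 and 10.5 CPM at 6 months, below WT of 6 months in every library. The 9 unprefixed 1-month WT and KO libraries held 0.124 to 0.573 CPM, and their 3 groups overlapped one another. An antisense gene, Gm20647, overlaps 147 exon bases of Corin and had 5 counts in all 30 libraries, against 4528 for Corin.

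Clic5 (ENSMUSG00000023959, chromosome 17, 44188572-44280168, plus strand) and Kazn (ENSMUSG00000040606, chromosome 4, 142102390-142239401, minus strand) followed. Clic5 libraries held 0.903, 0.515 and 1.07 CPM at 2 days and 14.7, 12.2 and 11.5 CPM when multinucleated at 6 months, and 0.959, 1.45 and 1.06 CPM against 13.9, 16.6 and 16.4 CPM at 20 months. The log2 fold changes were 3.92 ± 0.18 and 3.74 ± 0.17. Set D1 WT held 43.8, 45.2 and 50.7 CPM, above every other library, while set 519 KO of 6 months (13.7, 14.5 and 15.6 CPM) overlapped WT of 6 and 20 months. Clic5 held 5.39, 6.13 and 6.08 CPM in set 519 KO of 1 month and at most 0.932 CPM in the 9 unprefixed libraries of 1-month WT and of KO. Kazn differed less between the stages. It held 5.98, 3.03 and 5.23 CPM at 2 days and 14.5, 12.3 and 13.5 CPM when multinucleated at 6 months, and 6.23, 5.84 and 3.64 CPM against 17.7, 16.7 and 18.7 CPM at 20 months, that is 35.4% and 29.6% of the later level. Its unprefixed 1-month WT and KO libraries, 0.311 to 1.06 CPM, lay below all 6 of the 2-day libraries. Set D1 WT held 17.5, 16.4 and 16.1 CPM and set 519 KO 4.47, 5.05 and 6.08 CPM at 1 month and 12.7, 15.6 and 12.3 CPM at 6 months.

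Akr1c18 (ENSMUSG00000021214, chromosome 13, 4132615-4150654, minus strand; 9 exons) was the member with the highest level per length, at 214 RPKM, that is CPM per kilobase of exon, in set D1 WT. Its libraries held 8.80, 7.84 and 9.95 CPM at 2 days and 81.3, 84.8 and 94.0 CPM when multinucleated at 6 months, and 9.38, 10.6 and 10.1 CPM against 67.5, 67.7 and 65.9 CPM at 20 months. The stages did not overlap (log2 fold changes 3.28 ± 0.09 and 2.74 ± 0.09), and here the 20-month multinucleated libraries lay below all of the 6-month ones. Set D1 WT held 246, 254 and 276 CPM. Set 519 KO held 16.8, 14.5 and 15.2 CPM at 1 month and 31.5, 34.8 and 33.1 CPM at 6 months. The 6-month set 519 level was below WT of its age in every library, although its osteoclast marker sum was above that of WT. The unprefixed libraries of 1-month WT (5.34, 3.63 and 4.26 CPM), 1-month KO (6.28, 4.41 and 5.65 CPM) and 6-month KO (3.45, 3.22 and 3.72 CPM) all lay under the 2-day cells. Its relatives did not share the course. Of the 7 other AKR1C genes listed, Akr1c6 had 0 counts, Akr1c14, Akr1c19, Akr1c20 and Akr1c21 had group means of at most 0.598 CPM, and Akr1c12 and Akr1c13 were expressed. Akr1c13 rose at 6 months with a log2 fold change of 0.26 ± 0.07 (adjusted p = 0.0028) and Akr1c12 had 0.05 (adjusted p = 0.70, edgeR quasi-likelihood test with Benjamini-Hochberg adjustment over all genes tested, as for every adjusted p here).

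Rufy4 (ENSMUSG00000061815, chromosome 1, 74125541-74148223, plus strand) and Kbtbd11 (ENSMUSG00000055675, chromosome 8, 15011025-15033333, plus strand) were graded rather than switched. Rufy4 libraries held 43.1, 36.6 and 41.3 CPM at 2 days and 79.0, 84.5 and 80.2 CPM when multinucleated at 6 months, and 43.2, 47.5 and 42.5 CPM against 83.2, 76.1 and 79.5 CPM at 20 months. The 2-day level was thus 49.6% and 55.8% of the later one, with no overlap. Set D1 WT (50.3, 56.3 and 64.3 CPM) and set 519 KO of 6 months (49.3, 49.99 and 49.7 CPM) lay between the stages, unlike Calcr, whose level in these groups was the highest. Set 519 KO of 1 month (26.5, 24.0 and 18.2 CPM) overlapped unprefixed 1-month WT (20.6, 20.8 and 23.1 CPM). Unprefixed KO held 19.2, 16.1 and 17.3 CPM at 6 months and 2.87, 2.67 and 3.80 CPM at 1 month, so 1-month KO stood alone at the bottom. Kbtbd11 had the highest CPM of the set in WT of 6 and 20 months. It held 112, 80.2 and 103 CPM at 2 days and 137, 145 and 153 CPM when multinucleated at 6 months, and 67.5, 78.9 and 75.7 CPM against 142, 137 and 145 CPM at 20 months. The log2 fold changes of stage, 0.56 ± 0.09 and 0.93 ± 0.09, ranked 2207 and 1233 of 15310, so Kbtbd11 was no gene of large change between these stages. Its libraries held 66.3, 73.1 and 85.0 CPM in set D1 WT, 69.1, 78.4 and 69.2 CPM in set 519 KO of 6 months and 17.3, 14.4 and 14.7 CPM in set 519 KO of 1 month. The unprefixed libraries held 26.3, 30.4 and 32.8 CPM in 1-month WT, 28.1, 28.5 and 32.9 CPM in 6-month KO and 3.84, 3.60 and 4.80 CPM in 1-month KO. For Kbtbd11, as for Rufy4, 1-month WT and 6-month KO were close and 1-month KO far below both. The antisense gene Gm37844 covers 24.8% of the Kbtbd11 exon bases and holds all of the 24% of its 50-base words found in another gene. No strand option is recorded for the counting, so reads in that stretch cannot be assigned to either gene; Gm37844 itself had 146 counts against 36367.

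**Figure D2:**
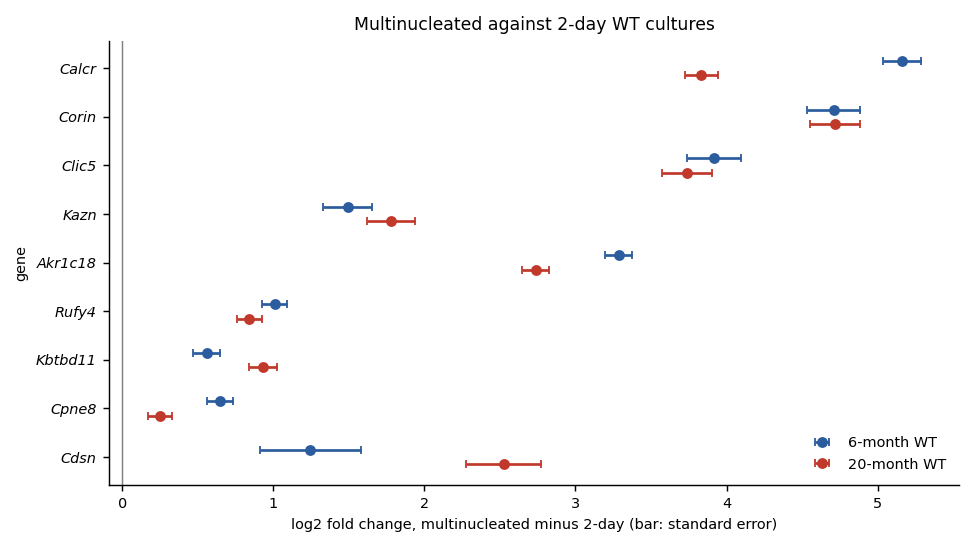
Log2 fold change of multinucleated against 2-day WT cells (horizontal axis; bar, standard error) for the 9 genes at 6 and 20 months (3 libraries a group). Calcr and Cdsn have the largest gaps between the ages, in opposite directions, and Cpne8, Kbtbd11 and Rufy4 lie closest to 0, at 0.25 to 1.01.

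Cpne8 (ENSMUSG00000052560, chromosome 15, 90487482-90679432, minus strand) went against the name of the set, since its levels nearly separated 1-month from older donors, in cultures with few and with many osteoclast markers. The 12 libraries of 1-month mice held 3.60 to 17.5 CPM (median 8.24) and the 18 libraries of older mice 17.1 to 69.0 CPM (median 43.4). These ranges touch only at set D1 WT (14.8, 15.8 and 17.5 CPM) and 6-month WT 2-day cells (17.1, 18.03 and 17.9 CPM). Set D1, the 1-month group with by far the highest osteoclast marker sums, is female by Xist and has an unexplained title tag. The highest levels were those of 6-month KO in both title sets, at 61.8, 62.3 and 61.4 CPM (unprefixed) and 66.9, 69.0 and 60.4 CPM (set 519), which overlapped each other. The unprefixed group of these had a Calcr mean of 0.784 CPM and set 519 one of 85.8 CPM. WT held 26.5, 29.6 and 26.9 CPM at 6 months and 44.7, 50.8 and 52.5 CPM at 20 months when multinucleated, and 42.1, 41.5 and 41.1 CPM at 20 months after 2 days. In WT its log2 fold changes were 0.65 ± 0.09 and 0.25 ± 0.08 by stage at 6 and 20 months, and 0.83 ± 0.08 and 1.23 ± 0.09 from 6 to 20 months in multinucleated and 2-day cells. Age did not order it throughout, since 6-month KO lay above 20-month WT. Unprefixed 1-month libraries held 7.74, 6.54 and 6.59 CPM in WT and 3.60, 4.35 and 4.95 CPM in KO, and set 519 KO of 1 month 12.9, 8.73 and 10.5 CPM. Of 8 other copine genes, Cpne2 and Cpne3 were expressed and the other 6 had group means of at most 0.366 CPM. Cpne2 fell from 2-day to multinucleated cells at 6 months, with a log2 fold change of -0.49 ± 0.05 (adjusted p = 1.1e-09, edgeR). Of 50-base words of Cpne8, 4.4% occur in other genes.

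**Figure D3:**
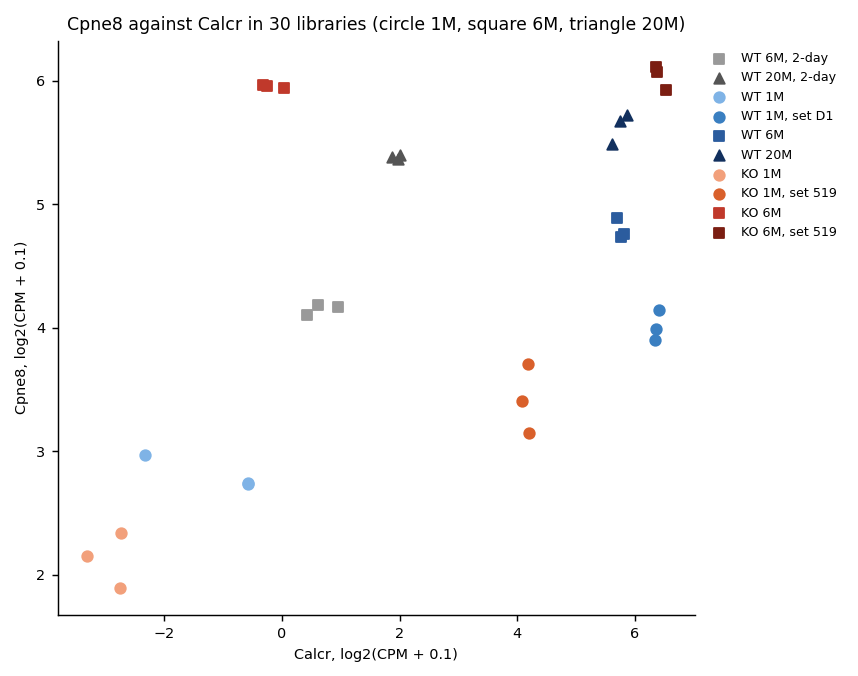
Cpne8 against Calcr, both as log2(CPM + 0.1), in 30 libraries (points; colour, group; shape, donor age). Circles (1 month) lie below nearly all other points, at 3.60 to 17.5 CPM of Cpne8, and their group means rise with Calcr. The 6-month KO squares lie at the top on both sides, near 62 and 65 CPM of Cpne8.

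Cdsn (ENSMUSG00000039518, chromosome 17, 35552128-35557180, plus strand; 2 exons) had the lowest top level of the set. It held 7.39, 5.04 and 8.58 CPM in 20-month WT multinucleated cells, from 138, 94 and 179 counts. No other library passed 1.80 CPM. Set D1 WT held 1.67, 1.70 and 1.80 CPM, 6-month WT multinucleated cells 1.40, 1.57 and 1.45 CPM and 20-month 2-day cells 0.959, 1.06 and 1.57 CPM, and the last 2 overlapped. The other 6 groups held 0.146 to 0.762 CPM, 1 to 15 counts a library, where counting error limits any order. The log2 fold change of stage was 1.25 ± 0.33 at 6 months and 2.52 ± 0.25 at 20 months. Keratinocyte markers did not move with it. The 11 genes summed to 5.32 to 5.68 CPM in 20-month multinucleated WT and to 4.78 to 17.3 CPM over all libraries, nearly all of it Sfn, and Krt5 and Krt14 had 1 count each in the 20-month group. Stromal markers did differ in the same direction, from 1209.5 to 1585 CPM in 6-month to 2435 to 2804 CPM in 20-month multinucleated WT, and were as high in 2-day cells (2850.0 to 3782 CPM), where Cdsn was low. Their part in the Cdsn level was not tested.

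Within the sets with a title tag, the same ages and genotypes gave further values for the members. Both comparisons below belong to the 10 groups from which the genes were named and share the 1-month set 519 libraries, so nothing is read from how many members moved. From 1 to 6 months in set 519 KO, the 6-month libraries all lay above the 1-month ones for 8 of the 9 members. Of all genes tested, 19.2% were called higher by the edgeR test. That is another measure, and the share of all genes with separate libraries was not computed. Cpne8 had the largest log2 fold change, 2.65 ± 0.11, then Calcr with 2.26 ± 0.10 and Kbtbd11 with 2.23 ± 0.13. Corin had 1.80 ± 0.18, Kazn 1.38 ± 0.21 and Clic5 1.31 ± 0.16. Akr1c18 and Rufy4 had the smallest of the 8, 1.10 ± 0.11 and 1.08 ± 0.11. Cdsn overlapped, with 0.18 ± 0.61 at 0.411 ± 0.158 and 0.466 ± 0.264 CPM. The median over the members was 1.38 and over all genes tested 0.04. Since the members were named for large differences, that gap is no finding of its own. The osteoclast marker sums of these groups also did not overlap, at 7019 to 8233 and 26435 to 27647 CPM, so the age of the donor and how far the cultures had gone cannot be told apart.

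At 1 month, the set 519 KO libraries lay below the set D1 WT libraries for all 9 members. Of all genes tested, 31.2% were called lower by the edgeR test, again another measure than separate libraries. Akr1c18 showed the widest gap, at 15.5 ± 1.19 against 259 ± 15.6 CPM, a log2 fold change of -4.08 ± 0.09. Corin had -3.34 ± 0.16, Clic5 -2.98 ± 0.14 and Kbtbd11 -2.29 ± 0.13. Calcr had -2.20 ± 0.10, Cdsn -1.89 ± 0.45 and Kazn -1.71 ± 0.19. Rufy4 and Cpne8 differed least, with -1.28 ± 0.10 and -0.63 ± 0.12. The median over the members was -2.20 and over all genes tested -0.01, a gap that the choice of members can itself give. Genotype is 1 of several things that differ between these groups. Set D1 is female by Xist and set 519 is not, the title tags differ, osteoclast marker sums were 7019 to 8233 against 44018 to 46436 CPM, and stromal marker sums were 451 to 535 against 3450.0 to 3767 CPM. These cannot be told apart here.

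**Figure D4:**
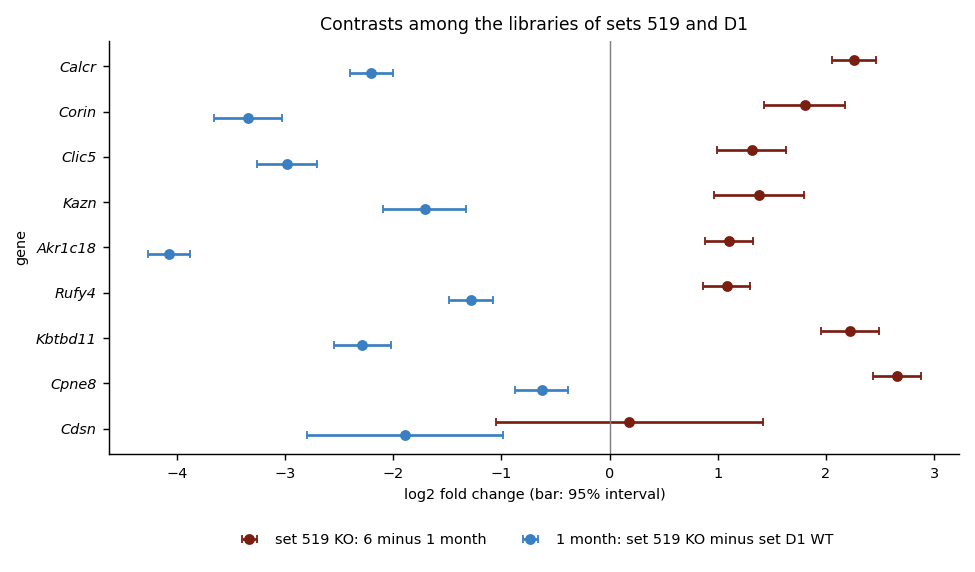
Log2 fold change (horizontal axis; bar, 95% interval) of the 9 genes in set 519 KO at 6 against 1 month and, at 1 month, in set 519 KO against set D1 WT (3 libraries a group). Estimates run from 0.18 (Cdsn) to 2.65 (Cpne8) in the first and from -4.08 (Akr1c18) to -0.63 (Cpne8) in the second. The bars describe the fit and are no test, since the genes were named from these groups.

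The 2 title sets gave different accounts of genotype. In unprefixed libraries, KO against WT at 6 months had log2 fold changes of -6.10 ± 0.13 for Calcr, -5.68 ± 0.19 for Corin, -4.64 ± 0.10 for Akr1c18, -4.00 ± 0.21 for Kazn and -3.90 ± 0.17 for Clic5. With set 519 as the KO against the same WT libraries, Calcr had 0.66 ± 0.08, Clic5 0.20 ± 0.12, Kazn -0.02 ± 0.16, Corin -0.70 ± 0.12 and Akr1c18 -1.40 ± 0.08. Rufy4 and Kbtbd11 kept the direction with both, at -2.21 ± 0.09 and -2.28 ± 0.10 unprefixed and -0.71 ± 0.09 and -1.01 ± 0.10 with set 519. Cpne8 also kept its direction, at 1.16 ± 0.08 and 1.24 ± 0.08, and so did Cdsn at -1.54 ± 0.33 and -1.49 ± 0.41. So Corin, Akr1c18, Rufy4, Kbtbd11, Cpne8 and Cdsn had the same sign with both KO sets and Calcr the opposite one, while the Clic5 and Kazn libraries of set 519 overlapped WT. These comparisons share their WT libraries and are given as values, with no test. At 1 month, unprefixed KO against unprefixed WT had -2.86 ± 0.14 for Kbtbd11 and -2.78 ± 0.13 for Rufy4, beside Calcr, whose KO level rests on 2 counts. With set 519 as KO these had -0.96 ± 0.13 and 0.12 ± 0.11, and Corin, Clic5, Kazn and Akr1c18 had 1.80 to 3.67.

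**Figure D5:**
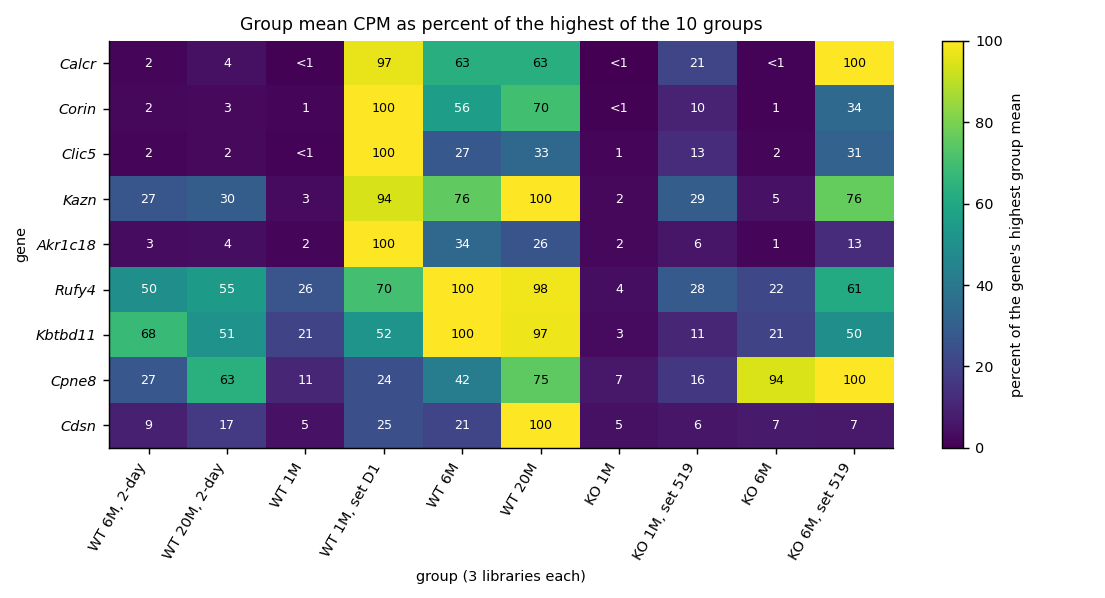
Mean CPM of each group (columns, 3 libraries each) as percent of the highest group mean of the same gene (rows). Calcr to Akr1c18 are at most 4.39% in 2-day cells except Kazn, Rufy4 and Kbtbd11 are at 49.6% to 67.9% there, and in unprefixed 6-month KO Cpne8 is at 94.5% and no other gene above 21.6%.

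The other genes of each member's pathway were counted from lists, members left out, in multinucleated against 2-day WT cells. Of all genes tested, 23.4% were called higher and 27.4% lower at 6 months, and 25.4% and 26.9% at 20 months. Around Calcr, calcitonin receptor signalling did not move as a group. Of 20 other genes tested, 5 rose and 6 fell at 6 months (7 and 6 at 20 months), with a median log2 fold change of -0.03. Calcrl, the receptor most like Calcr, fell by 0.50 ± 0.06 on the log2 scale (adjusted p = 5.7e-08) and the protein kinase A subunit Prkar2b by 1.17 ± 0.08 (1.7e-14). The adenylyl cyclase Adcy3 rose by 1.38 ± 0.08 (1.2e-16). Around Corin, 0 of 9 tested genes of the natriuretic peptide system rose and 7 fell at 6 months (0 and 5 at 20 months), with medians of -1.92 and -0.54. Transcripts of its usual substrate and of the related peptides were scarce: Nppa, Nppb and Nppc had group means of at most 0.156 CPM. The receptors Npr2 and Npr3 fell by 1.92 ± 0.15 (3.8e-13) and 2.97 ± 0.47 (2.7e-06) and the protease Pcsk6 by 3.16 ± 0.30 (7.1e-11), on the log2 scale. Stromal markers were 3468 to 3782 CPM in the 2-day and 1209.5 to 1585 CPM in the multinucleated 6-month libraries, and their part was not tested. All adjusted p in this paragraph are from edgeR.

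Around Clic5, 1 of 9 CLIC and ezrin-family genes rose and 3 fell at 6 months. Clic4, the most abundant CLIC gene, rose by 0.16 ± 0.05 on the log2 scale (adjusted p = 0.0074, edgeR) and Clic1 fell by 0.32 ± 0.06 (5.1e-05), both small beside 3.92 for Clic5. Around Rufy4, 11 of 17 genes of the RUFY family and of lysosome positioning rose and 0 fell at 6 months (11 and 1 at 20 months), with medians of 0.19 and 0.16. The lysosomal GTPase Arl8b rose by 0.82 ± 0.05 (7.1e-17) and the Rab7 effector Rilp by 0.89 ± 0.19 (1.9e-04). The other RUFY genes moved little. Rufy1 rose by 0.17 ± 0.06 (0.011), and Rufy2 and Rufy3 had -0.09 and 0.10 (adjusted p = 0.46 and 0.21). Around Kbtbd11, 7 of 19 genes of cullin 3 ligases rose and 4 fell, with a median of 0.03. Of its called genes with a group mean of at least 5 CPM, the adaptors Klhl22 and Klhl2 had the lowest log2 fold changes. Klhl24 and Klhl12 had the highest and rose by 1.39 ± 0.09 (5.2e-15) and 1.38 ± 0.06 (4.7e-19).

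Around Kazn and Cdsn, 5 of 10 tested desmosome and cornified envelope genes rose and 2 fell at 6 months (6 and 0 at 20 months), with medians of 0.54 and 0.71. Most were scarce. Named after their values were seen, the plakin Dsp and the cadherin Dsg2 reached 1.21 and 4.52 CPM in their highest group, and Klk5 and Klk7, the kallikreins that cut corneodesmosin in skin, had 0 counts. The abundant member that rose was the transglutaminase Tgm2 (0.62 ± 0.06, adjusted p = 3.5e-11, edgeR), and the junction protein Jup fell by 0.88 ± 0.14 (4.0e-06). In the steroid list around Akr1c18, 4 of 9 tested genes rose and 3 fell at 6 months. Of its called genes with a group mean of at least 5 CPM, Akr1b8 and Akr1b3 had the lowest log2 fold changes. The 5-alpha reductase Srd5a1 had the highest and rose by 1.01 ± 0.10 (2.1e-10).

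Among the lists of osteoclast function, the genes of resorption and acid secretion moved together most clearly. Of 19 genes of resorption and acid secretion other than Calcr, 18 rose at 6 months and 18 at 20 months, with median log2 fold changes of 1.32 and 1.35. In set 519 KO from 1 to 6 months 19 of 19 rose, with a median of 1.15, beside 19.2% of all genes tested. At 1 month 18 of 19 were lower in set 519 KO than in set D1 WT, with a median of -1.38, beside 31.2% of all genes. The exceptions, named after their values were seen, were Cttn at 6 months, Itgav at 20 months and Plekhm1, which was higher in set 519 KO. Ctsk, Acp5, Mmp9, Atp6v0d2, Itgb3 and Oscar are also among the 9 osteoclast markers summed above. The counts therefore partly repeat those sums. Oscar, the costimulatory receptor, rose by 3.32 ± 0.11 (adjusted p = 5.1e-23, edgeR) and the gelatinase Mmp9 by 2.75 ± 0.07 (1.2e-26) at 6 months. Calcr, Corin and Clic5 differed more there, which their choice for large differences can itself give. Of 15 fusion genes 10 rose and 3 fell at 6 months (9 and 4 at 20 months). Siglec15 rose by 2.45 ± 0.13 (3.1e-17) and Dcstamp by 1.76 ± 0.07 (1.5e-21), while Adam8 fell by 0.60 ± 0.05 (4.6e-12). Of 27 RANK signalling genes and transcription factors 20 rose and 1 fell at 6 months (17 and 1 at 20 months), and Fosl1 was the one that fell, by 1.96 ± 0.11 (1.7e-16). Between the tagged sets these 2 lists were mixed. At 1 month in set 519 KO against set D1 WT, 6 of 15 fusion genes were higher and 8 lower. Of 27 RANK genes 11 were higher and 9 lower there. From 1 to 6 months in set 519 KO, 8 fusion genes rose and 4 fell, and 14 RANK genes rose and 5 fell. Of 13 repressors of osteoclast formation 2 rose and 8 fell by stage at 6 months (2 and 7 at 20 months).

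The genes whose log2 CPM was most like that of a member over the 30 libraries were sought among 11065 tested genes with a group mean of at least 5 CPM. The correlations are descriptions, since libraries of a group and the osteoclast state of whole cultures are shared by all genes. Nearest to Calcr were the mitochondrial creatine kinase Ckmt1 (r = 0.99), Tspan7 (0.98) and Mmp9 (0.98). Nearest to Corin were the V-ATPase subunit gene Atp6v1b2 (0.98), Ephx2 (0.98) and the V-ATPase gene Atp6v1c1 (0.98), and to Clic5 the V-ATPase gene Atp6v1a (0.98), Dnajb14 (0.98) and Gpcpd1 (0.98). V-ATPase is the proton pump of the ruffled membrane. By Spearman's rank correlation these V-ATPase genes fell to places 35 (Atp6v1b2), 82 (Atp6v1c1) and 144 (Atp6v1a), and for Corin, Clic5 and Kazn 0 of the 3 nearest genes stayed among the first 10. Akr1c18 was nearest to Tmem65 and the mitochondrial transcripts mt-Tp and mt-Nd4 (0.98 each), and Kazn to the membrane-skeleton genes Ank2 (0.98), Kank1 (0.97) and Ablim1 (0.97). Rufy4 was nearest to the repressor gene Prdm1 (0.97), Ppargc1b (0.96) and Cd109 (0.96), and Kbtbd11 to Rai14, Pkn3 and the transcription factor gene Jdp2 (0.97 each). Cpne8 and Cdsn had weaker neighbours, Arhgef18 (0.88), Sema3d (0.87) and Aff2 (0.87), and Prdm9 (0.90), Rnf145 (0.88) and Alkbh5 (0.87). Among the members, Corin and Clic5 (0.96), Corin and Akr1c18 (0.96), Rufy4 and Kbtbd11 (0.96) and Calcr and Corin (0.95) were the closest pairs. Cpne8 had 0.25 (Akr1c18) to 0.67 (Kbtbd11) with the other members.

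Per length, the order of the members differed between states. In set D1 WT the RPKM were 214 for Akr1c18, 24.5 for Rufy4, 21.2 for Calcr, 10.5 for Kbtbd11 and 7.94 for Clic5. In unprefixed 6-month KO Cpne8 came first, at 14.9 RPKM, then Rufy4 at 7.53 and Kbtbd11 at 4.18, with Calcr at 0.200. In 2-day cells of both ages Rufy4 was first (17.3 and 19.1 RPKM) and Kbtbd11 second (13.8 and 10.4 RPKM). Akr1c18 was first in 6 of the 8 multinucleated groups. The exceptions were unprefixed 6-month KO and unprefixed 1-month WT, where Rufy4 came first at 9.23 RPKM.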

How the data were processed

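Bulk poly(A) RNA of 30 culture libraries in 10 groups of 3 was analysed. Gene counts were deposited by the authors as raw, whole read-pair counts per gene, made with featureCounts 1.6.0 on exons of the Ensembl 88 annotation of GRCm38, per the file headers. The submitters' processing notes also name HTSeq and mm10, with no role given, and no strand option is recorded. Counts were not normalized by the authors, and library totals ranged from 4269798 to 25147975.

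Counts were fitted in edgeR 4.0.16 (limma 3.58.1, R 4.3.3; quasi-likelihood test, TMM scaling, filterByExpr, 1 coefficient per group over all 30 libraries). Of 50686 genes, 15310 passed the filter, p-values were adjusted over them by Benjamini-Hochberg, and the threshold was 0.05. Tables and figures used Python 3.11.15. CPM are TMM-scaled, and RPKM divide them by merged exon length. Standard errors are the log2 fold change divided by the square root of F. Counting intervals are exact and cover counting error only. On simulated counts of 14793 genes for set 519 KO at 6 against 1 month, 99% of genes changed by 1 on the log2 scale and 100% of those changed by 2 were recovered. The changed genes were drawn from those with a mean of at least 5 CPM, so the recovery of lower genes such as Cdsn was not tested.

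The members, lists and tests were chosen with earlier results of these data known. P-values planned for the members are withheld, since the genes were named from differences over the same 10 groups; those given are for other genes. Named from each list were up to 4 genes, the 2 highest and 2 lowest called at 6 months with a group mean of at least 5 CPM, families of a member, and the 3 genes most correlated with each member. Replicates within a group were compared by chi-square, with 1.28 to 22.3 per degree of freedom over 30 pairs, and no pair was taken as a duplicate. Alternatives were other scalings, filters, DESeq2 1.42.0, fewer samples, a replicate block and leaving out each library.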

Additional observations from a re-analysis of the deposited data

Results flagged for a closer look

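Some members moved in opposite directions under the same contrast in 2 ages, genotypes or title sets, with every library of one group on one side. These differences were not tested, and the values are log2 fold changes. Cpne8 in unprefixed KO against WT had -0.69 at 1 month and 1.16 at 6 months. With set 519 as the 1-month KO against the same WT libraries, Cpne8 had 0.58. Calcr at 1 month had -3.35 with the unprefixed KO, whose 3 libraries hold 2 counts, and 5.38 with set 519. At 6 months Calcr had -6.10 with the unprefixed KO and 0.66 with set 519. Akr1c18 from 1 to 6 months had -0.67 in unprefixed KO, 1.10 in set 519 KO and 4.30 in WT.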

How the results depend on the processing

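Of 275 counts and medians over the members recomputed under the alternatives, 264 stayed within the limits set for no change, and of 2259 values of single genes 2237 did. No median over the members changed sign. Among the single-gene values 22 did, in 8 results near 0 in the fit reported: Cdsn in 3 comparisons, Kazn in 2, and Calcr, Rufy4 and Kbtbd11 in multinucleated WT of 20 against 6 months. Examples are Cdsn in set 519 KO at 6 against 1 month, 0.18 as reported and -0.15 at the lowest, and Cdsn in unprefixed KO against WT at 1 month, -0.19 and up to 0.25. For 5 of the 9 members, fewer than 2 of the 3 most similar genes stayed among the first 10 by Spearman's correlation. Fitting only the groups compared gave median log2 fold changes of 2.37 in place of 1.80 (set 519 KO against unprefixed WT, 1 month), 3.65 in place of 3.25 (set 519 against unprefixed KO, 6 months) and 2.47 in place of 1.02 (unprefixed KO, 6 against 1 month). In that setting the filter was applied anew, and a median covers only the members that passed it. Over all comparisons 152 single-gene values remained, against 162 with the replicate block. Such medians can therefore rest on fewer genes than those reported, and how much of the shifts this makes was not tested. With library totals alone, the median of set 519 KO against WT at 6 months was -0.81 in place of -0.70; the cause was not tested. Leaving out 1 library gave medians of -0.68 to -0.10 for the difference between title sets in KO 6 against 1 month (-0.10 without unprefixed 1-month KO replicate 1), 4.01 to 4.68 for WT of 20 against 1 month and 2.35 to 2.74 for the stage at 20 months. Replicate numbers did not pair the samples: in set 519 the correlations of deviations were -0.07 to 0.05, and 1 of 3 numbers matched best with itself. With the replicate block, Calcr had 2.24 in set 519 KO at 6 against 1 month, in place of 2.26. Depth limits Cdsn, and Calcr, Corin and Clic5 where they are under 1 CPM.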
